A study of Capra hircus with 2 samples.

Results

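miR-193 and miR-365 are a pair of small microRNA families whose genes lie next to each other in mammalian genomes, and 4 of their products were followed here in the mammary gland of dairy goats: miR-193a-5p, miR-193a-3p, miR-193b and miR-365. They were found among the deposited small RNA tags by stretches of 16 nt: miR-193a-5p by the last 16 nt of its most abundant tag, and the other 3 by nt 2 to 17. The 4 miRNAs stand beside 7324 groups of tags that reached at least 1 RPM (reads per 1000000 clean reads) in a library. The study compared peak with late lactation, with 1 library a stage, and each library held total RNA of mammary gland tissue pooled from 5 dairy goats, with no treatment or genotype named. There was thus no replicate and no test between the stages. All intervals below are 95% intervals for counting error, which leaves out copies made by PCR.

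A microRNA is cut from a hairpin, and either strand of the hairpin stem, the 5p arm or the 3p arm, can be loaded into Argonaute and guide the silencing of mRNAs that pair with its seed, the bases near its 5′ end. miR-193a-3p and miR-193b come from the 3p arm of related hairpins and share a seed, and both are known to restrain growth in several tumour types, breast cancer among them. miR-365 is cut from hairpins that neighbour those of miR-193, and the miR-193b and miR-365 pair is known for a role in the differentiation of brown fat.

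The most abundant tag of each of the 4 miRNAs is shown first, 5′ to 3′ with its seed (nt 2 to 8) in capitals, since the seeds and the letters after them decide which reads were counted for which miRNA.
miR-193a-5p: tGGGTCTTtgcgggcgagatga
miR-193a-3p: aACTGGCCtacaaagtcccagt
miR-193b: aACTGGCCcacaaagtcccgct
miR-365: tAATGCCCctaaaaatccttat

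The seed of miR-193a-3p was also that of miR-193b, and these tags differed at 3 of 22 positions, T9C, A20G and G21C, counted from 1 at the 5′ end of the miR-193a-3p tag. miR-365 had a seed of its own and differed from miR-193a-3p at 10 of 22 positions. The opposite arms of the same hairpins, and a second form of miR-193b, are shown next because the arm ratios rest on them.
miR-193b T form: aACTGGCCctcaaagtcccgct
miR-193b-5p: cGGGGTTTtgagggcgagatga
miR-365 5p C form: aGGGACTTtcaggggcagctgtg
miR-365 5p T form: aGGGACTTttgggggcagat

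The T form of miR-193b differed from the more abundant form at A10T alone, counted from the 5′ end of the more abundant form. miR-193b-5p differed from miR-193a-5p by T1C, T5G, C6T and C11A, counted along miR-193a-5p, so that T5G and C6T put different letters into the seed. The 2 forms of the miR-365 5p arm differed at 3 of 20 positions, all beyond the seed, as C10T, A11G and C19A counted along the C form. No tag was counted for more than 1 of the 4 miRNAs.

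The peak library held 19044002 clean reads and the late library 7385833, so 1 read was worth 0.0525 RPM in peak and 0.135 RPM in late lactation, and 3 reads, the limit that a count of 0 allows, came to 0.158 and 0.406 RPM. The libraries also differed in quality: 5′ adaptor contaminants made up 0.0494% of the high-quality reads of the peak library and 14.0% of those of the late library. Whether this had a part in the values below was not tested. In pooled tissue, fewer cells of a type and less RNA per cell cannot be told apart.

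The 4 miRNAs did not move together. In late lactation the 3p products were higher, miR-193a-3p by 38.2-fold, miR-365 by 8.59-fold and miR-193b by 5.25-fold, while miR-193a-5p was 1.497-fold lower. The plot of levels by library shows both directions.

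miR-193a-5p, the 5p arm of the miR-193a hairpin, counted 1328 reads in peak lactation, which is 69.7 RPM (66.0 to 73.6). It counted 344 reads in late lactation, 46.6 RPM (41.8 to 51.8). The log2 ratio of late over peak was -0.58 (-0.76 to -0.41), short of the 2-fold at which a miRNA is called here. It was the most abundant of the 4 in peak lactation, and the intervals of the libraries did not overlap. With nt 2 to 17 in place of the last 16 nt, which also takes in reads trimmed at the 3′ end, the counts were 1721 and 458 reads and the log2 ratio was -0.54.

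miR-193a-3p, cut from the other strand of the same hairpin, counted 56 reads in peak lactation, 2.94 RPM (2.22 to 3.82). Its count was 829 reads in late lactation, 112 RPM (105 to 120.2), the highest of the 4 there. The log2 ratio was 5.25 (4.86 to 5.67), which puts the ratio between 29.1-fold and 51.0-fold. Its reads fell on 10 distinct tags in peak and on 41 in late lactation.

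miR-193b, the 3p product with the same seed, counted 28 reads in peak lactation, 1.47 RPM (0.977 to 2.12), and 57 reads in late lactation, 7.72 RPM (5.85 to 9.999). The log2 ratio was 2.39 (1.72 to 3.10). The T form, which is not in these counts, had 21 and 18 reads, or 1.10 and 2.44 RPM, with a log2 ratio of 1.14 (0.15 to 2.12). Summed over both forms the counts were 49 and 75 reads, with a log2 ratio of 1.98 (1.44 to 2.53), and the intervals of the separate forms overlap.

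miR-365, the 3p product of the neighbouring hairpins, was the least abundant of the 4 in peak lactation with 18 reads, 0.945 RPM (0.560 to 1.49). It had 60 reads in late lactation, 8.12 RPM (6.20 to 10.5), and a log2 ratio of 3.10 (2.32 to 3.95). In human, both miR-365 hairpins give the same 3p product, so reads of it cannot be assigned to a gene. The order of levels in peak lactation was miR-193a-5p, miR-193a-3p, miR-193b and miR-365, with overlapping intervals for the last pair only. With the T form added, miR-193b came to 2.57 RPM (1.90 to 3.40) in peak lactation, which overlaps the interval of miR-193a-3p (2.22 to 3.82). In late lactation miR-193a-3p stood above miR-193a-5p, and miR-365 and miR-193b came last with overlapping intervals.

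**Figure D1:**
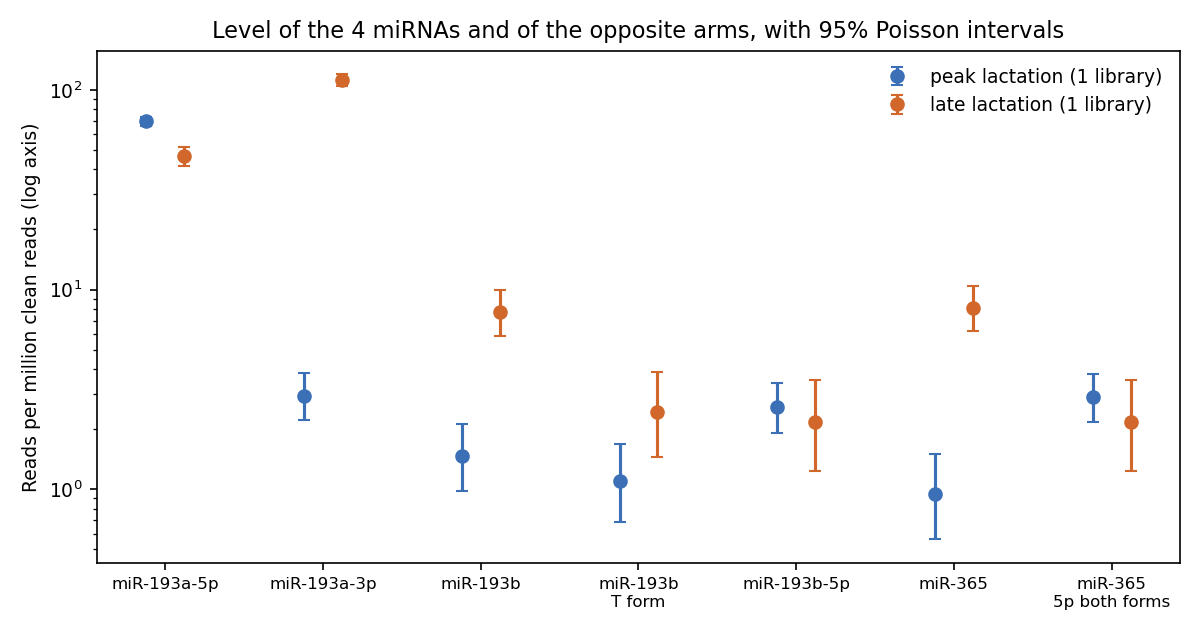
Level of each miRNA and of the opposite arms in RPM on a log axis, with 1 point a library (peak and late lactation) and bars for 95% Poisson intervals. The 4 products of 3p arms lie higher in late lactation, miR-193a-3p from 2.94 to 112 RPM, while miR-193a-5p lies lower, 69.7 against 46.6 RPM.

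The arm ratio of miR-193a turned over between the libraries. In peak lactation the 5p arm had 23.7 reads (18.1 to 31.6) for each read of the 3p arm. In late lactation the 3p arm had 2.41 reads (2.12 to 2.74) for each read of the 5p arm. The share of the 3p arm was 4.05% (3.07 to 5.22) of 1384 reads of both arms in peak and 70.7% (68.0 to 73.3) of 1173 reads in late lactation. This share needs no library total, since both arms are counted in the same library, and the odds of a read being 3p were 57.1 times (42.3 to 78.1) as high in late lactation.

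Counting the arms differently moved the share by a few points and left its direction. With both arms taken by nt 2 to 17, the 3p share was 3.15% in peak and 64.4% in late lactation, and the odds ratio was 55.6 (41.5 to 75.6). Both arms summed gave 72.7 RPM in peak and 159 RPM in late lactation by the first count, a log2 ratio of 1.13 (1.01 to 1.24). By nt 2 to 17 they gave 93.3 and 174 RPM and a log2 ratio of 0.90 (0.80 to 1.01), so whether the summed hairpin passed 2-fold depended on the count used.

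The arm shares of miR-193b and miR-365 moved the same way with far fewer reads. For miR-193b the 3p share was 36.4% (25.7 to 48.1) of 77 reads in peak and 78.1% (66.9 to 86.9) of 73 reads in late lactation, an odds ratio of 6.23 (2.86 to 13.8). With the T form added, the 3p arm took 49 of 98 reads in peak and 82.4% of 91 reads in late lactation. For miR-365 the 3p share was 24.7% (15.3 to 36.1) of 73 reads and 78.9% (68.1 to 87.5) of 76 reads, an odds ratio of 11.5 (5.004 to 26.6). In late lactation the 3p arm was the larger for miR-193a, miR-193b and miR-365. In peak lactation the 5p arm was the larger for miR-193a and miR-365, and for miR-193b without the T form. With the T form the miR-193b arms were equal, but 11 of the 49 3p reads lay on T form tags of 27 nt or longer. Without those long tags the 5p arm, which had none, was the larger there too. The intervals of each share did not overlap between the libraries.

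None of the 5p arms had a higher level in late lactation. miR-193b-5p had 49 reads in peak and 16 in late lactation, 2.57 and 2.17 RPM, with a log2 ratio of -0.25 (-1.16 to 0.59). The miR-365 5p arm, both forms together, had 55 and 16 reads, 2.89 and 2.17 RPM, with a log2 ratio of -0.41 (-1.32 to 0.41). Each of these intervals contains 0, and each also allows a decrease of more than 2-fold. The C form gave 44 and 13 of these reads and the T form 11 and 3.

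Of other hairpins, miR-142, a miRNA of white blood cells, was the only one among the marker miRNAs described below that was counted on both arms. Its 3p share was 85.9% (84.8 to 86.8) of 4726 reads in peak and 85.1% (84.0 to 86.0) of 4940 reads in late lactation, while its 3p arm alone went from 213 to 569 RPM. The arm shares of the remaining hairpins were not analysed here, so the shift is not shown to be particular to miR-193 and miR-365.

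**Figure D2:**
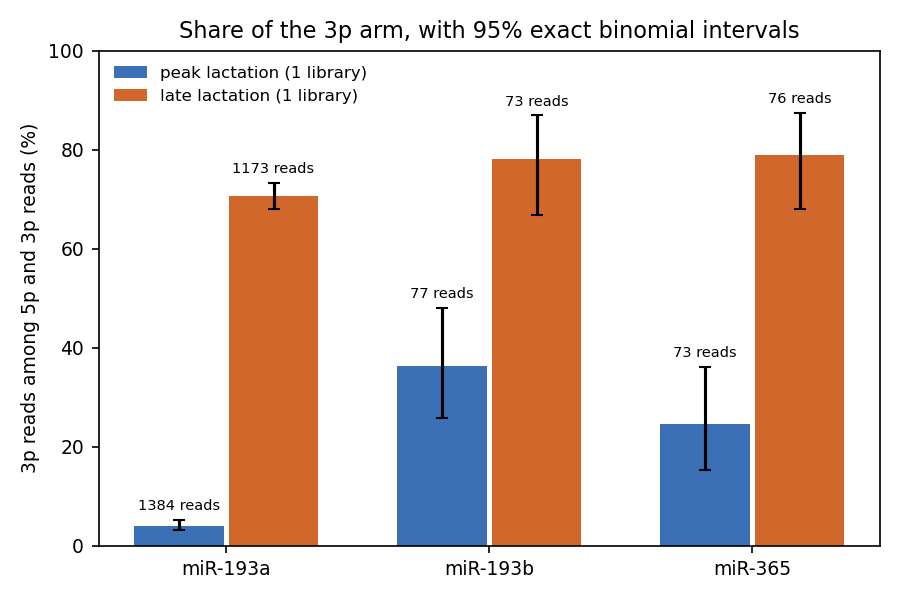
Share of 3p reads among the 5p and 3p reads (%) of miR-193a, miR-193b and miR-365, 1 bar a library. Bars carry 95% exact binomial intervals, with the number of reads of both arms above. For miR-365 both forms of the 5p arm are pooled. The 3p share is 4.05% against 70.7% for miR-193a, 36.4% against 78.1% for miR-193b and 24.7% against 78.9% for miR-365 in peak against late lactation.

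The neighbours of the clusters were compared next, since miRNAs cut from 1 primary transcript can be expected to be made together. The ratio of miR-193b to miR-365 was 1.56 (0.831 to 2.99) in peak and 0.950 (0.649 to 1.39) in late lactation. The late ratio was 0.611 times the peak ratio (0.285 to 1.29), an interval that spans 1. With both forms of miR-193b the ratio went from 2.72 to 1.25, and the late ratio was 0.459 times (0.228 to 0.904) the peak ratio. Whether the ratio of this pair changed therefore depended on whether the T form was counted.

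miR-193a-3p moved further than miR-365 or miR-193b. Its ratio to miR-365 was 3.11 (1.80 to 5.62) in peak and 13.8 (10.6 to 18.3) in late lactation, 4.44 times higher (2.30 to 8.24). Against miR-193b, its partner in seed, it was 2.00 (1.25 to 3.27) in peak and 14.5 (11.1 to 19.4) in late lactation, 7.27 times higher (4.11 to 12.6). Against both forms of miR-193b it was 1.14 (0.765 to 1.71) in peak and 11.1 (8.72 to 14.2) in late lactation. That was 9.67 times higher (5.99 to 15.5), and the peak interval spans 1. The 5p arms showed no such change: the ratio of miR-193a-5p to miR-193b-5p was 27.1 in peak and 21.5 in late lactation, 0.793 times (0.437 to 1.51).

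The RefSeq annotation of the goat genome (ARS1.2) lists 264 miRNA genes, 2 of them of these families, MIR193A and MIR365, on different chromosomes. MIR193A is listed between the coding genes MKL2 and PARN, and MIR365 between COPRS and RAB11FIP4. In the human genome the hairpins between MKL2 and PARN are named miR-193b and miR-365a, and those beside RAB11FIP4 are named miR-193a and miR-365b. Which of the tags above each goat gene encodes was not analysed here, because no goat genome sequence was used.

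The 3p reads of the miR-193 hairpins were told apart by nt 9 and 10. Among all tags with the shared letters at nt 2 to 8 and 11 to 17, TA of miR-193a-3p took 56 and 829 reads, CA of miR-193b 28 and 57 reads, and CT of the T form 21 and 18 reads in peak and late lactation. A single other pair of letters had 1 read in each library. The 3′ letters (nt 19 to 21) were not used for the counts, and no miR-193a-3p read carried the miR-193b end. Of the miR-193b reads, 28 of 28 in peak and 46 of 57 in late lactation carried the miR-193b end, 1 late read carried the miR-193a end, 7 were too short to tell and 3 had other letters.

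The T form stood apart in its tags. Of its 21 peak reads, 11 lay on 7 tags of 27 nt or longer, and 9 of these reads, on 5 tags, were the T form joined to the start of 1 of the 100 most abundant tags. None of its late reads was that long. All values given above for both forms of miR-193b together include these long tags. Leaving out tags of 27 nt or longer left 10 and 18 reads and a log2 ratio of 2.21 (1.02 to 3.49) in place of 1.14. In late lactation 13 of its 18 reads were too short to show nt 19 to 21. The 4 miRNAs themselves had at most 3 such long reads in a library and none that was joined.

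The ends of the miR-193a reads were nearly the same in both libraries although the levels were not. Of the miR-193a-5p reads by nt 2 to 17, 99.5% in peak and 98.0% in late lactation began where the tag shown above begins. For miR-193a-3p these were 56 of 56 reads and 98.1%. The matching by nt 2 to 17 required the letters of the seed, and reads that lacked nt 2 could not be counted. These shares therefore do not test how uniform the seed was. The tag shown took 66.8% (64.5 to 69.0) and 64.2% (59.6 to 68.6) of the 5p reads, and 66.1% (52.2 to 78.2) and 64.2% (60.8 to 67.4) of the 3p reads. Reads shorter at the 3′ end made up 16.1% and 17.7% of the 5p reads and 14.3% and 15.2% of the 3p reads, and none of these pairs of intervals was apart.

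**Figure D3:**
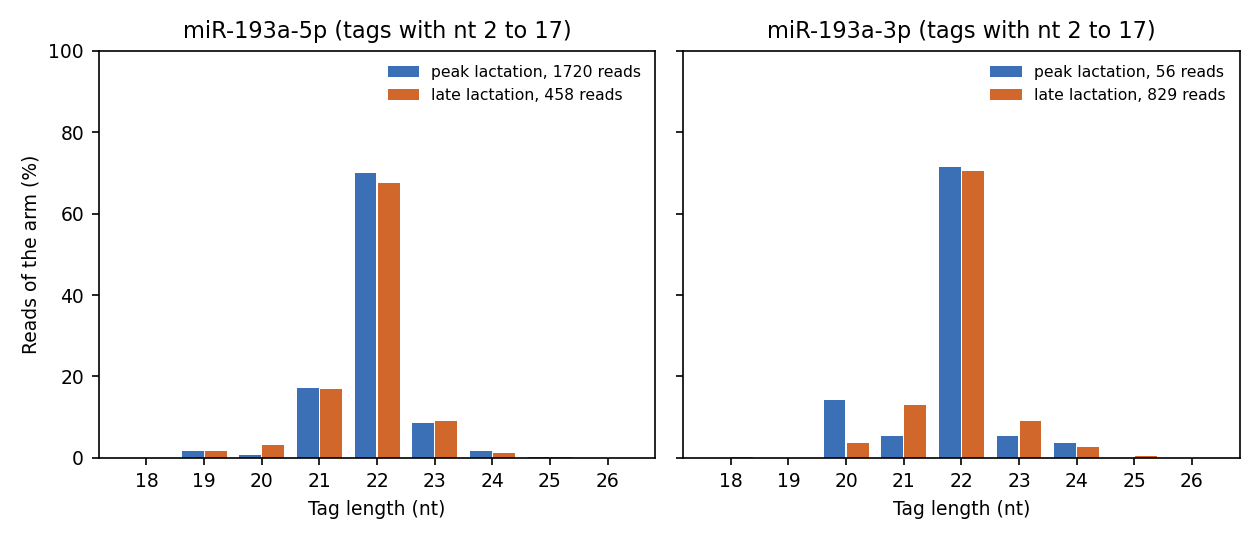
Share of the reads of each miR-193a arm (%) by tag length in peak and late lactation, both arms counted by nt 2 to 17, with at most 3 reads of an arm in a library beyond the 26 nt drawn. Most reads of both arms are 22 nt long in both libraries, with mean lengths of 21.9 and 21.9 nt for the 5p arm and 21.8 and 22.0 nt for the 3p arm.

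The next most abundant tags were trimmed or extended at the 3′ end, where the letters matter little for the choice of targets. For miR-193a-5p, by nt 2 to 17, the tag 1 nt shorter came next, with 239 and 64 reads in peak and late lactation, but it lacks the last base of the 16 nt used and is not in the 1328 and 344 reads. Among tags with all 16 nt the next were the one with 1 more A, with 61 and 20 reads, and the one with 1 more T, with 64 and 9 reads. For miR-193a-3p they were the tag 1 nt shorter, with 3 and 93 reads, and the tag with 1 more A, with 2 and 39 reads. They are shown for the arm that changed most, with the seed in capitals.
miR-193a-3p, 1 nt shorter: aACTGGCCtacaaagtcccag
miR-193a-3p, 1 nt longer: aACTGGCCtacaaagtcccagta

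Each of these 3p tags was higher in late lactation, as was the leading tag alone, which went from 37 to 532 reads, or from 1.94 to 72.0 RPM.

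The less abundant pair varied more at the 3′ end. The tag of miR-193b shown above took 60.7% (40.6 to 78.5) of its reads in peak and 33.3% (21.4 to 47.1) in late lactation, and 17 and 19 reads. Its next tags were the one with 1 more T, with 2 and 10 reads, and the one 1 nt shorter, with 7 and 5 reads. The tag of miR-365 took 55.6% (30.8 to 78.5) and 25.0% (14.7 to 37.9), and 10 and 15 reads. Its next tags were 1 nt shorter, with 2 and 11 reads, and one that ended in c in place of t, with 0 and 10 reads. The intervals of these shares overlapped between the libraries, and the ratios of the single tags, a log2 of 1.53 for miR-193b and 1.95 for miR-365, were below those of the summed tags.

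Ratios of at least 2-fold were common in these libraries. Of the 7324 groups of tags with at least 1 RPM in a library, each made of the tags that share nt 2 to 17 of their most abundant tag, 2918 (39.8%) were at least 2-fold higher in late lactation and 1932 (26.4%) at least 2-fold lower, with a median log2 ratio of 0.37. Of the 4 miRNAs, 3 were at least 2-fold higher and 0 at least 2-fold lower. This balance depended on the settings. With totals that left out the 10 most abundant tags, 7458 of 13967 groups were higher and 2858 lower. At a minimum of 10 RPM the lower groups were the more numerous, 558 against 505 of 1785, and they were also with no filter (191692 against 114201) and with single tags in place of groups (10486 against 8045). A ratio past 2-fold alone thus did not set miR-193b and miR-365 apart. Among all tested groups, 1690 (23.1%) had a higher ratio than miR-193b and 1351 (18.4%) a higher one than miR-365. Both counts include 785 groups at 0 in peak lactation, which have no finite ratio. The counts were not repeated on the groups with reads in both libraries. miR-193a-5p lay within the broad middle, with 2504 groups (34.2%) below it.

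A higher ratio than that of miR-193a-3p was found in 854 groups (11.7%), and 785 of the tested groups were at 0 in peak lactation. Groups at 0 in peak lactation have no finite ratio and count among the 854. Of 415 groups as abundant as miR-193a-3p or more, 6 had a higher ratio, 105 were at least 2-fold higher and 139 at least 2-fold lower. The median log2 ratio of the 415 was -0.44. miR-193a-3p is that abundant through its late level alone (112 RPM, against 2.94 RPM in peak lactation). The count of 6 therefore draws on the same values as its ratio and is no test. These figures describe the pair of libraries, and their spread between animals is unknown.

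**Figure D4:**
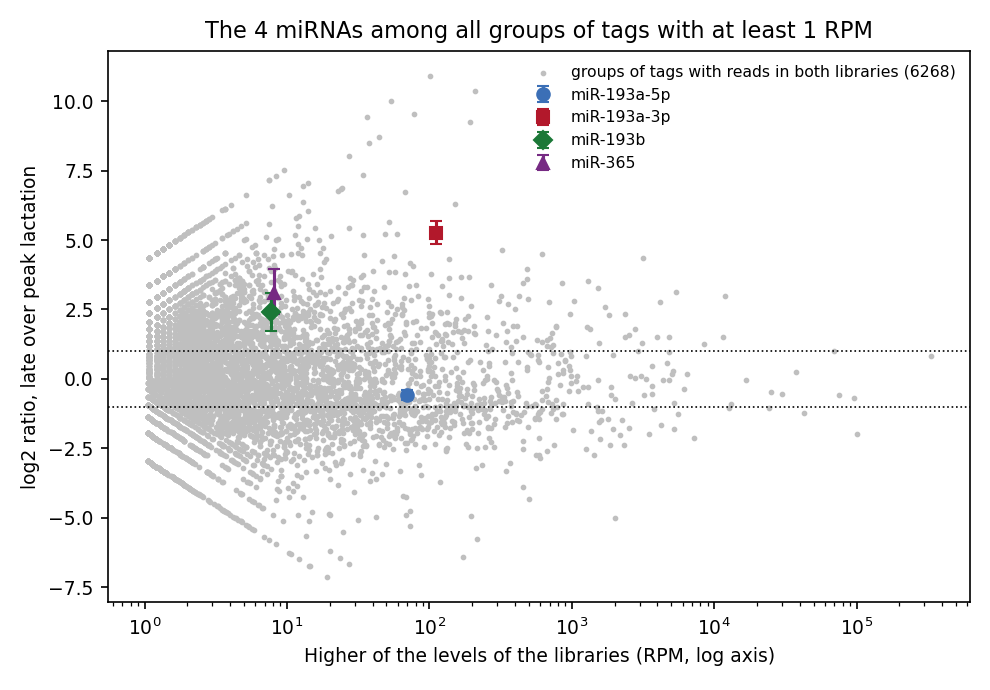
Ratio of late over peak lactation (log2) against the higher of both levels (RPM, log axis) for the 6268 groups of tags with reads in both libraries and for the 4 miRNAs, with 95% intervals for counting error and dotted lines at 2-fold. miR-193a-3p (5.25), miR-365 (3.10) and miR-193b (2.39) lie above the upper line, and miR-193a-5p (-0.58) lies between the lines.

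The marker miRNAs of other cell types moved between the same libraries. Their counts stand beside the shares over all groups of tags, 39.8% at least 2-fold higher and 26.4% at least 2-fold lower. All 4 leukocyte miRNAs (miR-142-5p, miR-142-3p, miR-150 and miR-223) were at least 2-fold higher in late lactation, their summed level going from 283 to 939 RPM. As miR-142-5p and miR-142-3p are arms of 1 hairpin, these 4 are not separate genes. Of 4 miRNAs of stroma and smooth muscle, 2 were at least 2-fold higher and 0 lower (summed level 190196 to 333942 RPM). The log2 ratios were 4.63 for miR-214, 3.28 for miR-145, 0.81 for miR-143 and -0.16 for miR-199a. miR-143 made up nearly all of the summed level (189037 and 331206 RPM). Of 6 epithelial miRNAs of the miR-200 family and miR-205, 1 was at least 2-fold higher and 2 lower (31747 to 21669 RPM). Most of this summed level was miR-200c (24151 and 11691 RPM), so the sum mainly follows that miRNA. The log2 ratios were 1.41 for miR-205, 0.97 for miR-141 and -0.01 for miR-200b. They were -0.28 for miR-200a, -1.05 for miR-200c and -1.08 for miR-429.

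Blood cell miRNAs gave 2 of 3 at least 2-fold higher and 0 lower (1888 to 3285 RPM). Muscle miRNAs gave 1 of 3 higher and 0 lower (2681 to 1499 RPM). Short of 2-fold, miR-486 of the blood cell list fell, with a log2 ratio of -0.61. So did miR-1, with -0.86, which made up nearly all of the muscle sum. The muscle miRNA that was higher was miR-133a, 3.05 to 16.7 RPM. The endothelial miR-126 was more than 2-fold lower (12701 to 6126 RPM). No marker was at 0 in either library, and the epithelial markers were abundant in both. The part of cell makeup in the ratios of miR-193 and miR-365 was not tested.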

How the data were processed

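Small RNA libraries of goat mammary gland, 1 of peak and 1 of late lactation, were analysed. The authors sequenced them on an Illumina instrument, filtered and trimmed the reads, collapsed identical reads and deposited the counts of each distinct tag as raw numbers, along with a log of how many reads passed each filter. Tools and versions of the filtering are not given in the sources used. Tags carry no names.

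The miRNAs and lists were chosen with earlier results of these data known. No table of mature miRNA sequences was used. Each miRNA was sought by 9 letters recalled from its conserved sequence, on the given strand only: TTTGCGGGC at nt 7 (miR-193a-5p), and from nt 2 ACTGGCCTA (miR-193a-3p), ACTGGCCCA (miR-193b), ACTGGCCCT (T form), AATGCCCCT (miR-365), GGGGTTTTG (miR-193b-5p), GGGACTTTC and GGGACTTTT (miR-365 5p). The most abundant tag with these letters gave the 16 nt by which reads were summed, anywhere in a tag. The names thus rest on these letters, and the form of miR-193b with more reads was taken as miR-193b after its counts were seen. The marker miRNAs were found in the same way. Groups of tags replaced the reference miRNAs first planned as background.

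Reads were divided by clean reads per 1000000. Intervals are exact Poisson for levels and Clopper-Pearson for shares, ratios of levels and ratios within a library. Odds ratios, and the changes of a partner ratio from peak to late lactation, have exact conditional intervals. The calls were at least 2-fold, with no test. The named tags are the 3 most abundant among those counted for each miRNA, to which the trimmed tag of miR-193a-5p was added after its counts were seen, and those of the opposite arms and of the T form are given only as sums. Scripts, checked on simulated counts, used Python 3.11.15, scipy 1.17.1, edgeR 4.0.16 (TMM) and DESeq2 1.42.0 (size factors).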

Additional observations from a re-analysis of the deposited data

How the results depend on the processing

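No ratio of the 4 miRNAs changed direction under any alternative run. The log2 ratio ranged from -0.61 to -0.50 for miR-193a-5p and from 5.20 to 5.34 for miR-193a-3p over 11 alternatives each. For miR-193b it ranged from 1.53, with the single identical tag, to 2.48 over 12, and for miR-365 from 1.91, with the last 16 nt of its tag (chosen after seeing the data), to 3.48 over 11, with 1.95 for the identical tag. All 3 stayed past 2-fold and miR-193a-5p never reached it. The 3p share of miR-193a in late lactation was 64.4% with the identical tags, with tags that begin with nt 1 to 18 and with both arms by nt 2 to 17, and 64.8% with the last 16 nt of both arms. Groups at least 2-fold higher and lower were 505 and 558 at 10 RPM, 114201 and 191692 with no filter, and 8045 and 10486 as single tags, so that lower groups outnumbered higher ones in these 3, unlike in the 2918 and 1932 reported. Without the 10 most abundant tags, which raises every RPM and so the number of groups tested, 7458 were higher. Scaling moved every log2 ratio by at most 0.085. Totals of reference miRNAs, reference miRNAs of like pattern and the arm shares of all hairpins were not run, since they need a table of mature sequences. No replicate could be left out. No paired analysis was possible because each stage had 1 library. Depth limits miR-193b and miR-365 most, at 28 and 18 reads in peak lactation.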
